A study of Homo sapiens with 12 samples.

Results

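MALL, a small membrane protein of the MAL family, was set beside 8 genes for related or neighbouring proteins of membrane rafts: MAL, MAL2, PLLP, CAV1, CAV2, FLOT1, FLOT2 and ANXA2. MALL was chosen by its measured FPKM, which was much lower after doxorubicin in every background, so its own values are a description with no test. The other 8 genes were picked as its relatives, with earlier results of these data known. The 9 genes were found by symbol among the 57908 loci of the expression table, where a locus can carry several gene symbols separated by commas. They fell on 10 loci, because MAL2 had 2 loci, and 9 of the 10 were among the 15833 loci kept for testing, those with at least 1 FPKM in at least 2 samples. FLOT1 shared its locus with IER3, and FLOT2 shared its locus with DHRS13, so the flotillins had no value of their own.

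Membrane rafts are small, changing patches of the plasma membrane and of transport vesicles that are rich in cholesterol and sphingolipids. MAL, MAL2, MALL and PLLP are tetraspan proteins with a MARVEL domain that sit in such patches, and MAL and MAL2 carry cargo to the apical surface of epithelial cells. Caveolins build the coat of caveolae, which are flask-shaped pits of the same lipids, flotillins line flat patches on the inner face of the membrane, and annexin A2 binds acidic lipids there when calcium is present.

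HCT116 is a human colorectal cancer cell line, and doxorubicin is an anthracycline that traps topoisomerase II on DNA and causes strand breaks. The cells, labelled wild type, were transiently transfected with a plasmid for NSE4A-flag (NSE4, gene symbol NSMCE4A), for SMC5-flag, or for a control that the titles call GFP and the design text calls a vector. NSE4 and SMC5 are subunits of the SMC5/6 complex, which helps to keep chromosomes intact. A day after transfection the cells were divided, and 1 portion received 1000 nM doxorubicin for 24 hours while the other received PBS. This gave 6 groups of 2 libraries: NSE4-DOX and NSE4, SMC5-DOX and SMC5, and GFP-DOX and GFP, where DOX marks the drug and a name without it marks PBS. Every value below is the authors' FPKM, fragments scaled to transcript length and to the mapped fragments of the library, for RNA of the whole culture, with no selection of transfected cells stated.

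The 12 libraries had 23635 to 26185 loci above 0, and the spacing of their lowest values put their depth at about 13000000 to 20100000 fragments. The 2 SMC5-DOX libraries differed far less than other replicates did. They held 1091 identical values above 0 and 7 loci above 0 in only 1 of the pair, against 0 identical values and 4216 to 5291 such loci in the other 5 pairs, and they were averaged and counted as 1 sample. NSMCE4A had 4069 to 6287 FPKM in cells with the NSE4 plasmid and 32.6 to 89.4 FPKM elsewhere, and SMC5 had 772 to 979 FPKM in cells with the SMC5 plasmid and 7.02 to 34.4 FPKM elsewhere. Of the 6 colon epithelial markers with a locus of their own, KRT8, KRT18, CLDN4, EPCAM and CDH1 averaged at least 1 FPKM, and the 6 summed to 2160 to 2510 FPKM with doxorubicin and 2170 to 2520 FPKM without it. Of 7 fibroblast markers only COL1A1 averaged 1 FPKM or more, and the 7 summed to 16.1 to 28.0 FPKM with doxorubicin and 18.2 to 25.6 FPKM without it. Of 4 leukocyte markers only ITGAM averaged 1 FPKM or more, and the 4 summed to 1.23 to 3.28 FPKM with doxorubicin and 0.303 to 1.38 FPKM without it, and their part in the results was not tested. The 4 endothelial markers summed to at most 0.853 FPKM with doxorubicin and 0.646 FPKM without it, and no marker of the 4 lists was at 0 in all samples.

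The promoters of MALL, of both caveolins, which fell with doxorubicin, and of ANXA2, which did not pass the test, are shown for comparison. They are the 250 bases before the transcription start in RefSeq on GRCh38.p14, written 5′ to 3′ on the strand of the gene. The 8 members other than MAL2 were matched there by symbol, and MAL2 was left out of that match. Capitals mark the motifs searched on both strands: the GC box GGGCGG, the CCAAT box, the AP-1 site TGANTCA, the TATA box TATAAA and the CHR element TTTGAA, with overlapping matches counted separately.
MALL, most upstream start, chr2:110118140-110118389, minus strand: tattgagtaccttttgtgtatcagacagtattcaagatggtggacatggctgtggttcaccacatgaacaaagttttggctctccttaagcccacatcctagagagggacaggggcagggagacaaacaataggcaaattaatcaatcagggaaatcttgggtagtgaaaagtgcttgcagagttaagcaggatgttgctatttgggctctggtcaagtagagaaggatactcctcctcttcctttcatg
MALL, second start, chr2:110115823-110116072, minus strand: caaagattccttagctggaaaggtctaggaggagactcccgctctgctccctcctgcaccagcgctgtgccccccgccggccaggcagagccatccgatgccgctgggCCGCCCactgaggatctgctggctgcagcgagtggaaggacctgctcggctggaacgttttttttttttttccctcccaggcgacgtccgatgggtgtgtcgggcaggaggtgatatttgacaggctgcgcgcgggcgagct
CAV1, chr7:116524759-116525008, plus strand: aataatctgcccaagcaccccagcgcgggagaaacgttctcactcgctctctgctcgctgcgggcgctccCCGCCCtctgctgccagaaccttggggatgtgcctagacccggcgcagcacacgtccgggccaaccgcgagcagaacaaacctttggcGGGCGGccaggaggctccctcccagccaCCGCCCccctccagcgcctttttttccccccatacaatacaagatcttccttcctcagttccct
CAV2, chr7:116499488-116499737, plus strand: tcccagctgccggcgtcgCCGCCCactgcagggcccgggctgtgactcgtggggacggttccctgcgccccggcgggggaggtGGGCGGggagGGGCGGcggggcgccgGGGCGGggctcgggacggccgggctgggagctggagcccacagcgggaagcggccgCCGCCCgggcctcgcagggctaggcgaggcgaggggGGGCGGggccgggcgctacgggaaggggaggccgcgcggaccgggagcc
ANXA2, chr15:60397987-60398236, minus strand: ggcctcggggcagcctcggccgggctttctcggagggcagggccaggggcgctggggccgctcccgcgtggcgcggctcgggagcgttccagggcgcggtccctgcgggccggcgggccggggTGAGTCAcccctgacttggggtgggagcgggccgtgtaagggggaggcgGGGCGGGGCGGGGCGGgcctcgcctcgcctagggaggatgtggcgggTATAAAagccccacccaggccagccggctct

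The most upstream MALL promoter held none of the 5 motifs and had a G and C content of 44.4%, and the second held 1 GC box and had 62.8%. The CAV1 promoter held 3 GC boxes at 63.6%, and the CAV2 promoter held 6 at 83.2%. The ANXA2 promoter, at 78.0%, held 3 GC boxes, 1 AP-1 site and 1 TATA box. Over 35116 RefSeq promoters of the same length the median content was 58.0%, and 42.6% held a GC box, 32.0% a CCAAT box, 6.57% an AP-1 site, 10.7% a TATA box and 13.3% a CHR element. Which MALL start HCT116 cells use was not measured.

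MALL was expressed at about the level of MAL2 in PBS cells and near the bottom of the set in doxorubicin cells. It had 6.37 and 5.71 FPKM in GFP-DOX cells, against 82.0 and 71.8 FPKM in GFP cells. In the other backgrounds it had 7.38 and 7.07 FPKM in NSE4-DOX cells, against 76.9 and 91.5 FPKM in NSE4 cells, and 7.79 FPKM in the averaged SMC5-DOX sample, against 75.8 and 80.6 FPKM in SMC5 cells. Every doxorubicin value was far below every PBS value, and in bulk RNA fewer cells that express a gene cannot be told apart from less of its RNA per cell.

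The mean of MALL was 12.7-fold lower in GFP-DOX than in GFP cells, 11.7-fold lower in NSE4-DOX than in NSE4 cells and 10.0-fold lower in SMC5-DOX than in SMC5 cells. On the log2(FPKM + 1) scale the differences were −3.47, −3.37 and −3.17 in GFP, NSE4 and SMC5 cells. Among the 15833 loci MALL had the 6th, the 4th and the 14th most negative difference in these backgrounds, where 11, 8 and 17 loci lay at −3 or below. The 1st percentile of all loci was −1.47, −1.48 and −1.54. These ranks restate what the gene was picked for, and larger falls than that of MALL existed in each background.

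**Figure D1:**
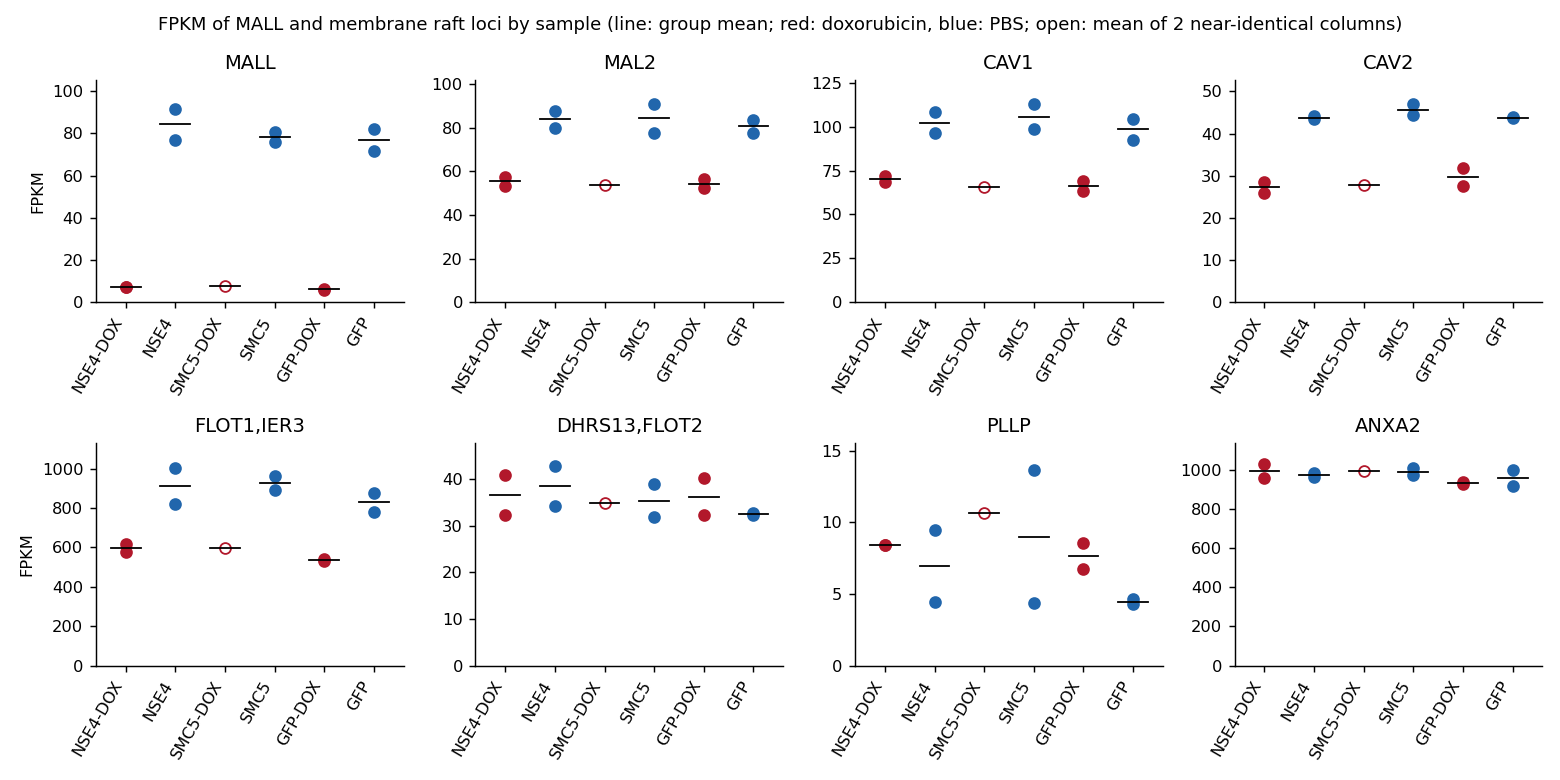
FPKM of 8 member loci in each library, 1 panel a locus with FPKM from 0 on the vertical axis, with DOX groups (red) to the left of their PBS groups (blue), lines at group means and 1 open point for the averaged SMC5-DOX sample. MALL separates into 5.71 to 7.79 FPKM with doxorubicin and 71.8 to 91.5 FPKM without it, while ANXA2 stays between 920.0 and 1030 FPKM.

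The order of the 10 loci was nearly the same in the 3 PBS groups. ANXA2 and the FLOT1,IER3 locus led, followed by CAV1, then MAL2 and MALL, then CAV2, the DHRS13,FLOT2 locus, PLLP, the second MAL2 locus and MAL. MAL2 and MALL did not differ beyond their spread, with 83.9 ± 5.58 and 84.2 ± 10.4 FPKM in NSE4 cells and 80.7 ± 4.01 and 76.9 ± 7.19 FPKM in GFP cells (SD, n = 2 each). In the 3 doxorubicin groups MALL was 8th, below PLLP, which averaged 7.65 ± 1.32 FPKM beside 6.04 ± 0.466 FPKM for MALL in GFP-DOX cells (SD, n = 2 each), and PLLP's range there reached down to 6.72 FPKM. The DHRS13,FLOT2 locus stood above CAV2 in doxorubicin cells and below it in PBS cells.

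Of the 8 tested member loci other than MALL, 4 fell with doxorubicin and 0 rose, in GFP cells and in each of the other backgrounds. Across all loci 14.1% fell in GFP cells, 13.9% in NSE4 cells and 9.87% in SMC5 cells, and 31.1%, 30.2% and 20.9% changed in either direction. The 4 were MAL2, CAV1, CAV2 and the FLOT1,IER3 locus, each at 0.607 to 0.686 of its PBS mean. The members were not chosen blind to these data, and CAV1 and CAV2 are neighbouring genes. The median log2 change of the 8 was −0.35 in GFP cells, −0.31 in NSE4 cells and −0.59 in SMC5 cells, beside 0.02, 0.03 and 0.02 over all loci. All p-values are from limma with Benjamini-Hochberg adjustment over the 15833 loci at a threshold of 0.05, and since no label says that replicates came from separate cultures, the spread they rest on may be technical. The main fit also treated doxorubicin and PBS libraries as independent, although the cells were divided after transfection. A fit with a replicate block is among the alternatives below. In SMC5 cells the 4 calls rest on 1 averaged doxorubicin sample: fitted on the SMC5 groups alone, with less to estimate the spread from, 0 of the 4 passed.

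MAL2, the epithelial family member that works in transcytosis to the apical membrane, fell in the 3 backgrounds. It had 56.5 and 52.4 FPKM in GFP-DOX cells, against 83.5 and 77.8 FPKM in GFP cells, a log2 change of −0.56 ± 0.11 (SE; limma adjusted p = 0.00608). In NSE4-DOX cells it had 57.4 and 53.4 FPKM, against 87.8 and 79.9 FPKM in NSE4 cells (log2 −0.59, limma adjusted p = 0.00497). The averaged SMC5-DOX sample had 53.8 FPKM, against 90.9 and 77.7 FPKM in SMC5 cells (log2 −0.64, limma adjusted p = 0.0127). No doxorubicin value reached a PBS value, and without replicate 1 of SMC5 the adjusted p there was 0.0566. The second MAL2 locus lay at 0.229 to 1.47 FPKM with overlapping groups in GFP and NSE4 cells, and it passed the test in none of the 9 comparisons. It lay near the filter, with 1 FPKM reached in 2 doxorubicin samples and 1 PBS sample, so its PBS samples alone would not have passed.

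MAL, the founding member, which is best known from T cells, myelin and polarised epithelia, was listed at 0 in 11 of the 12 libraries. The exception was replicate 1 of NSE4-DOX at 0.0762 FPKM, so MAL did not enter the fit. PLLP, or plasmolipin, is a myelin and epithelial protein of the same family. It had 6.72 and 8.59 FPKM in GFP-DOX cells, against 4.67 and 4.27 FPKM in GFP cells, without overlap, and the log2 difference of 0.65 (95% interval −0.36 to 1.67) did not pass the test (limma adjusted p = 0.3). In NSE4-DOX cells it had 8.44 and 8.43 FPKM, against 9.49 and 4.44 FPKM in NSE4 cells, and the SMC5-DOX sample had 10.7 FPKM, against 4.36 and 13.7 FPKM in SMC5 cells. The NSE4 and SMC5 groups spanned the values of their doxorubicin groups, and the ratio of replicate 2 to replicate 1 ranged from 0.468 to 3.13 over the 5 groups with separate replicates.

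**Figure D2:**
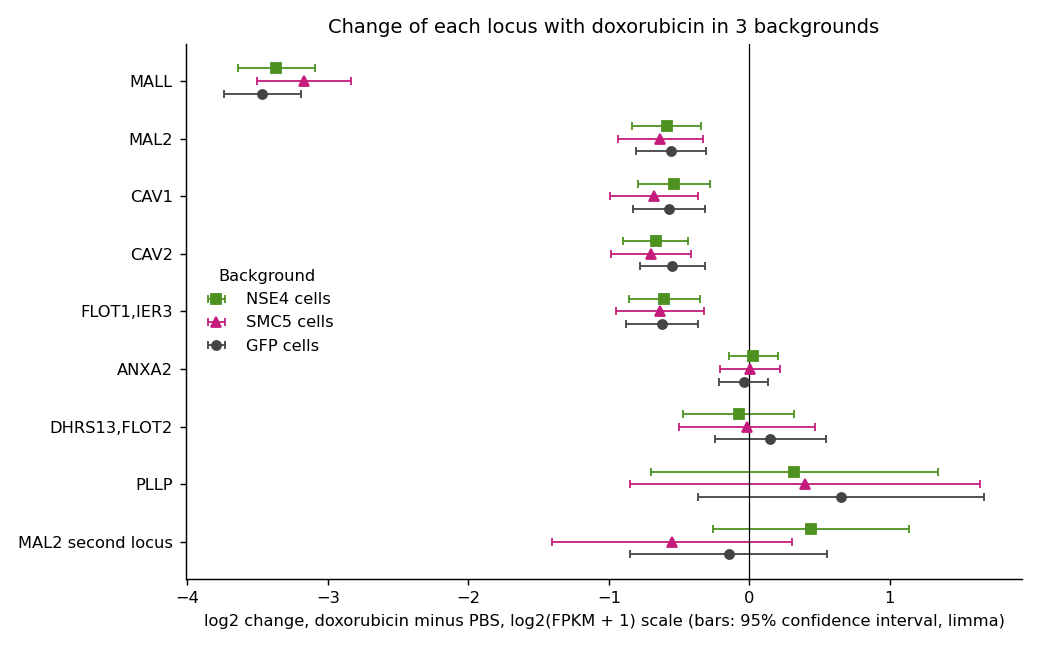
Log2(FPKM + 1) difference of each tested member locus, doxorubicin minus PBS, in the 3 backgrounds, with 95% intervals from limma. MALL lies at −3.47 to −3.17, MAL2, CAV1, CAV2 and the FLOT1,IER3 locus lie between −0.70 and −0.54, and the intervals of PLLP, the DHRS13,FLOT2 locus, ANXA2 and the second MAL2 locus include 0. The intervals drawn for MALL do not allow for its choice by this fall and carry no test.

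Caveolin genes fell together. CAV1, the main coat protein of caveolae, had 63.2 and 69.1 FPKM in GFP-DOX cells, against 104.5 and 92.7 FPKM in GFP cells, a log2 change of −0.57 ± 0.11 (SE; limma adjusted p = 0.00654). CAV2, which assembles with CAV1, had 27.5 and 31.8 FPKM in GFP-DOX cells, against 43.8 and 43.6 FPKM in GFP cells, a log2 change of −0.55 ± 0.10 (SE; limma adjusted p = 0.00483). In both genes each doxorubicin value lay below each PBS value, and CAV1 had more than CAV2 in every group on this scale per length.

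In NSE4-DOX cells CAV1 had 72.0 and 68.2 FPKM, against 96.3 and 108.3 FPKM in NSE4 cells (log2 −0.54, limma adjusted p = 0.00883). CAV2 had 28.5 and 26.0 FPKM in NSE4-DOX cells, against 44.2 and 43.4 FPKM in NSE4 cells (log2 −0.67, limma adjusted p = 0.00208). The groups did not overlap, as in GFP cells. In the SMC5-DOX sample CAV1 had 65.6 FPKM, against 112.8 and 98.8 FPKM in SMC5 cells (log2 −0.68, limma adjusted p = 0.0113), and CAV2 had 27.7 FPKM, against 46.9 and 44.3 FPKM in SMC5 cells (log2 −0.70, limma adjusted p = 0.00653). For CAV1 the adjusted p was 0.0526 without replicate 2 of NSE4-DOX and 0.054 without replicate 1 of SMC5.

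The FLOT1,IER3 locus holds flotillin-1 and IER3, an immediate early gene, and its level is that of both genes together. It had 541.9 and 533.6 FPKM in GFP-DOX cells, against 782 and 877.9 FPKM in GFP cells, a log2 change of −0.62 ± 0.11 (SE; limma adjusted p = 0.00419). In NSE4-DOX cells it had 576.7 and 617.3 FPKM, against 821.5 and 1004 FPKM in NSE4 cells (log2 −0.61, limma adjusted p = 0.00496). The SMC5-DOX sample had 596.8 FPKM, against 892.7 and 963.3 FPKM in SMC5 cells (log2 −0.64, limma adjusted p = 0.0141). All doxorubicin values lay below all PBS values, and which of the 2 genes fell cannot be told apart. The adjusted p was 0.0566 when NSE4 cells were fitted alone and 0.0618 without replicate 2 of SMC5.

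The DHRS13,FLOT2 locus, which joins flotillin-2 with a short-chain dehydrogenase gene, had 32.2 and 40.3 FPKM in GFP-DOX cells, against 32.2 and 32.6 FPKM in GFP cells. In NSE4-DOX cells it had 32.2 and 40.9 FPKM, against 34.2 and 42.9 FPKM in NSE4 cells, and in the SMC5-DOX sample it had 34.8 FPKM, against 32.0 and 38.9 FPKM in SMC5 cells. The groups overlapped in each background, and the log2 differences of 0.15, −0.08 and −0.02 in GFP, NSE4 and SMC5 cells did not pass the test (limma adjusted p of 0.552, 0.774 and 0.971). Replicate 2 was the higher one in 5 of 5 groups with separate replicates, by 1.01 to 1.27 times.

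ANXA2 was the most abundant of the set. It had 927 and 939.8 FPKM in GFP-DOX cells, against 920.0 and 1002 FPKM in GFP cells, and 959.3 and 1030 FPKM in NSE4-DOX cells, against 965.9 and 983.6 FPKM in NSE4 cells. The SMC5-DOX sample had 995.1 FPKM, against 973.5 and 1010 FPKM in SMC5 cells. The groups overlapped, and the log2 differences were −0.04 (95% interval −0.22 to 0.13), 0.03 and 0.01 in GFP, NSE4 and SMC5 cells (limma adjusted p of 0.727, 0.813 and 0.983). After quantile normalization, which gives each sample the same set of values, ANXA2 was higher with doxorubicin by 0.27, 0.41 and 0.31 in these backgrounds (limma adjusted p of 0.00346, 0.0005 and 0.00706), while the median over all loci was −0.02 in each. ANXA2 has near-identical processed copies, ANXA2P1, ANXA2P2 and ANXA2P3, which had at most 1.05 FPKM, and how the authors divided shared reads among them is not stated.

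The plasmids were then compared within each treatment. MALL had 84.2 ± 10.4 FPKM in NSE4 cells and 78.2 ± 3.43 FPKM in SMC5 cells, against 76.9 ± 7.19 FPKM in GFP cells (SD, n = 2 each), and the ranges overlapped. With doxorubicin it had 7.23 ± 0.219 FPKM in NSE4-DOX cells and 7.79 FPKM in the SMC5-DOX sample, against 6.04 ± 0.466 FPKM in GFP-DOX cells. Neither overlapped with GFP-DOX, but with 1 or 2 samples a group such separation often arises without a difference. How many of all loci separate in this way was not counted. The log2 differences from GFP-DOX were 0.23 (95% interval −0.05 to 0.50) for NSE4-DOX and 0.32 (−0.01 to 0.66) for SMC5-DOX. From GFP they were 0.13 (−0.15 to 0.40) for NSE4 and 0.03 (−0.25 to 0.30) for SMC5. MALL was picked from these same values, so the differences are a description with no test.

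Among the 8 tested member loci other than MALL, limma called 0 in each of the 4 plasmid comparisons. Of these 8 loci, 0 had an unadjusted p under 0.05 in any of them. Over all 15833 loci, 452 for NSE4 and 489 for SMC5 had such a p without doxorubicin, and 534 and 476 with it. At so small a share 0 of 8 does not set the members apart from other loci. The share called over all loci was 0.0442% for NSE4 and 0.0% for SMC5 without doxorubicin, and 0.0568% for NSE4 and 0.0316% for SMC5 with it, so few calls were made anywhere. Whether doxorubicin acted differently with a plasmid than with GFP was tested as an interaction for the 8 loci other than MALL. There limma called 0, and 0 had an unadjusted p under 0.05. Of all loci 0.0316% were called for NSE4 and 0.0189% for SMC5. An unadjusted p under 0.05 was found at 454 of all loci for NSE4 and 440 for SMC5. Here too 0 of 8 does not set the members apart. For CAV1 the interaction was 0.03 (95% interval −0.33 to 0.39) with NSE4 and −0.11 (−0.51 to 0.29) with SMC5, and for CAV2 it was −0.12 (−0.44 to 0.21) and −0.15 (−0.52 to 0.21), on the log2 scale. For MALL, with no test, it was 0.10 (−0.29 to 0.49) with NSE4 and 0.30 (−0.14 to 0.73) with SMC5.

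Other genes of these protein classes were counted in 6 lists, leaving out genes that share a locus with another coding gene. No gene of the 6 lists was called in a plasmid or interaction comparison, where at most 0.0568% of all loci were called. In the list of MARVEL domain and related tetraspan genes, 6 of 15 tested loci fell and 1 rose in GFP-DOX against GFP cells. The median log2 change was −0.33 beside 0.02 over all loci, where 14.1% fell and 31.1% changed. The counts were 5 lower and 2 higher in NSE4 cells and 4 lower and 1 higher in SMC5 cells. Over all loci 13.9% fell and 30.2% changed in NSE4 cells, and 9.87% fell and 20.9% changed in SMC5 cells. CMTM8, a chemokine-like factor family member tied to turnover of the EGF receptor, averaged 11.3 ± 1.35 FPKM in GFP-DOX cells and 31.9 ± 3.08 FPKM in GFP cells (SD, n = 2 each; log2 −1.42, limma adjusted p = 0.000124). MYADM, a raft protein that helps to organise RAC1 at the membrane, fell by 1.11, its relative CMTM7 by 1.02 and PLP2, a colonic epithelial tetraspan protein, by 0.62 on the log2 scale (limma adjusted p of 0.000372, 0.000813 and 0.00224). MARVELD3, a tight junction protein, rose by 0.75 (limma adjusted p = 0.00771), and it was named after its value was seen.

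Caveola coat and SPFH genes, the second group covering stomatins, prohibitins and erlins that share a domain with flotillins, moved both ways. Of 9 tested loci 4 rose and 2 fell in each of the 3 backgrounds, with a median log2 change of 0.30 in GFP cells beside 0.02 over all loci, where 31.1%, 30.2% and 20.9% were called in GFP, NSE4 and SMC5 cells. CAVIN3, a caveola coat protein that binds protein kinase C delta, averaged 11.9 FPKM in GFP-DOX cells and 25.9 FPKM in GFP cells (log2 −1.06, limma adjusted p = 0.00212), and PHB2, a mitochondrial prohibitin, fell by 0.69 (limma adjusted p = 0.00208). STOML1, a stomatin-like protein, averaged 9.90 FPKM in GFP-DOX cells and 2.96 FPKM in GFP cells (log2 1.46, limma adjusted p = 0.00118). EHD1, an ATPase of endocytic recycling, averaged 53.3 FPKM in GFP-DOX cells and 24.9 FPKM in GFP cells (log2 1.07, limma adjusted p = 0.00269). CAVIN1, which coats caveolae with CAV1, rose by 0.78, and STOM rose by 0.71 (limma adjusted p of 0.00285 and 0.0028), so within the caveola coat CAV1, CAV2 and CAVIN3 were lower and CAVIN1 higher in GFP-DOX cells. CAVIN1 and STOM were named after their values were seen.

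Of 11 tested annexin and annexin partner genes 5 fell and 2 rose in GFP-DOX against GFP cells, with a median of −0.29 beside 0.02 over all loci, where 14.1% fell and 31.1% changed. The counts were 4 lower and 2 higher in NSE4 cells, where 13.9% of all loci fell and 30.2% changed. In SMC5 cells they were 4 lower and 0 higher, where 9.87% of all loci fell and 20.9% changed. Whichever library was left out, 0 or 1 was called higher in NSE4 cells, and 2 were called lower in SMC5 cells without replicate 2 of SMC5. ANXA1, a regulator of inflammation and membrane repair, averaged 195.6 ± 5.94 FPKM in GFP-DOX cells and 380.5 ± 10.97 FPKM in GFP cells (SD, n = 2 each; log2 −0.96, limma adjusted p = 0.000104). ANXA3 fell by 1.17 and ANXA6 by 1.05, while ANXA4 rose by 0.42 (limma adjusted p of 0.000111, 0.00318 and 0.00635). S100A10, the partner of annexin A2 in their tetramer, differed by −0.26 without passing the test (limma adjusted p = 0.0901), and it was named for that partnership.

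Of 8 tested GPI-anchored surface protein genes 4 were called higher and 2 lower in GFP-DOX against GFP cells, and 4 higher and 3 lower in each of the other backgrounds. Of the higher ones 2, ALPPL2 and ALPP, passed the filter only through their doxorubicin samples and so had to differ. Without them 2 of 6 rose and 2 fell in GFP cells, and 2 rose and 3 fell in each of the other backgrounds, beside 31.1%, 30.2% and 20.9% of all loci called in GFP, NSE4 and SMC5 cells. Without replicate 1 of SMC5 only 1 of all 8 was called higher in SMC5 cells. NT5E, the ectonucleotidase CD73, averaged 28.1 FPKM in GFP-DOX cells and 57.7 FPKM in GFP cells (log2 −1.01, limma adjusted p = 0.000241), and PLAUR, the urokinase receptor, averaged 32.9 FPKM in GFP-DOX cells and 73.1 FPKM in GFP cells (log2 −1.13, limma adjusted p = 0.00117). GPC1, a heparan sulfate proteoglycan, rose by 1.06 (limma adjusted p = 0.00134). ALPPL2, an alkaline phosphatase with near-identical paralogs among which reads may be split, had 1.65 to 2.53 FPKM over the doxorubicin samples and 0.0977 to 0.366 FPKM over the PBS samples, given with no test for the reason above. Of 8 tested SRC family kinase and adaptor genes 1 rose and 1 fell in each background, a share near that of all loci called. In GFP cells SRC rose by 0.77 and LYN fell by 0.47 (limma adjusted p of 0.0129 and 0.019). Neither held when GFP cells were fitted alone (adjusted p of 0.0628 for SRC and 0.0517 for LYN), and SRC did not hold without replicate 2 of GFP (0.0756) or of GFP-DOX (0.0785), nor LYN without any 1 library of these groups (0.0669 to 0.0875).

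Sphingolipid synthesis genes, which make the lipids of rafts, had 3 of 15 higher and 1 lower in GFP-DOX against GFP cells, a share near the 31.1% of all loci called, with a median of 0.08 beside 0.02. The counts were 1 higher and 2 lower in NSE4 cells, and 1 higher and 0 lower in SMC5 cells, where 30.2% and 20.9% of all loci were called. CERS5, a ceramide synthase, averaged 49.4 FPKM in GFP-DOX cells and 20.04 FPKM in GFP cells (log2 1.26, limma adjusted p = 6.02e-05). DEGS1, the dihydroceramide desaturase, rose by 0.52, KDSR, a reductase early in the pathway, rose by 0.47, and B4GALT5, a lactosylceramide synthase, fell by 0.46 (limma adjusted p of 0.00952, 0.0378 and 0.0181). Without replicate 1 of GFP-DOX the adjusted p was 0.0526 for DEGS1, 0.0817 for KDSR and 0.0956 for B4GALT5, and without replicate 1 of GFP it was 0.208 for KDSR and 0.0809 for B4GALT5.

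**Figure D3:**
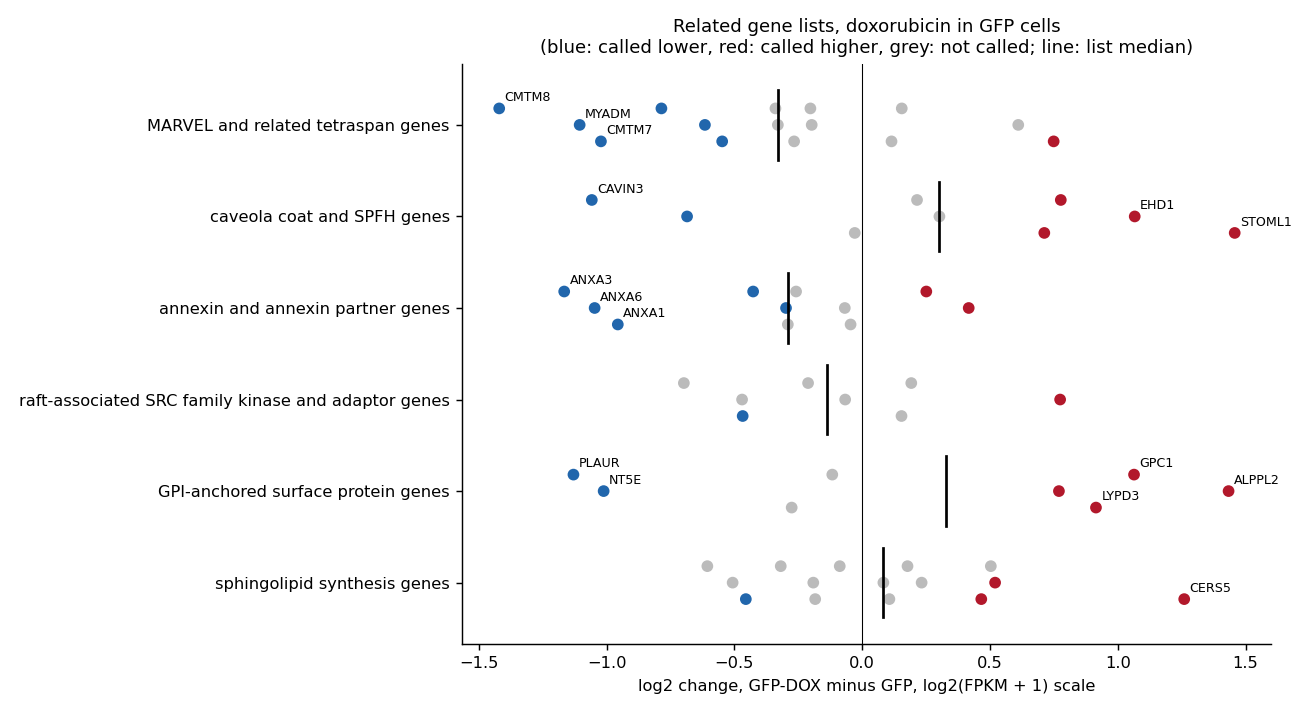
Log2(FPKM + 1) difference of each tested gene of the 6 lists, GFP-DOX minus GFP, in red (higher) or blue (lower) where limma's adjusted p was under 0.05 and grey where it was not, with a line at each list's median. CMTM8 at −1.42 is among the lowest and STOML1 at 1.46 among the highest, and every list holds genes on both sides of 0. ALPPL2 and ALPP entered through their doxorubicin samples alone.

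The genes whose pattern was most like that of MALL were sought by Pearson correlation of log2(FPKM + 1) over the 11 samples, among 11842 loci with a symbol of their own. They were RPL22L1, RPL7 and RPS14, which are ribosomal proteins or a close relative, ERG28, a scaffold of sterol synthesis enzymes, and ANXA1, with r of 0.9969, 0.9969, 0.9969, 0.9969 and 0.9965. RPL22L1 averaged 73.6 FPKM in GFP-DOX cells and 440.7 FPKM in GFP cells, and RPS14 averaged 455.7 FPKM in GFP-DOX cells and 1110 FPKM in GFP cells. RPL7 averaged 956.3 FPKM in GFP-DOX cells and 1816 FPKM in GFP cells, and ERG28 averaged 11.6 FPKM in GFP-DOX cells and 23.9 FPKM in GFP cells. Like MALL these genes were low in all doxorubicin samples and high in all PBS samples, so their r mostly reflects that separation, and the size of their falls differed widely. Ribosomal protein genes have many processed copies, and how the authors divided reads among those is not stated.

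Among the members, MAL2 had r of 0.969 with MALL, CAV2 0.966, CAV1 0.965 and the FLOT1,IER3 locus 0.958, and 421, 462, 490 and 585 of the 11842 loci were at least as alike. ANXA2 had 0.106, the second MAL2 locus 0.04, the DHRS13,FLOT2 locus −0.07 and PLLP −0.41. The samples fall into doxorubicin and PBS sets, so these values describe the contrast and carry no test.

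**Figure D4:**
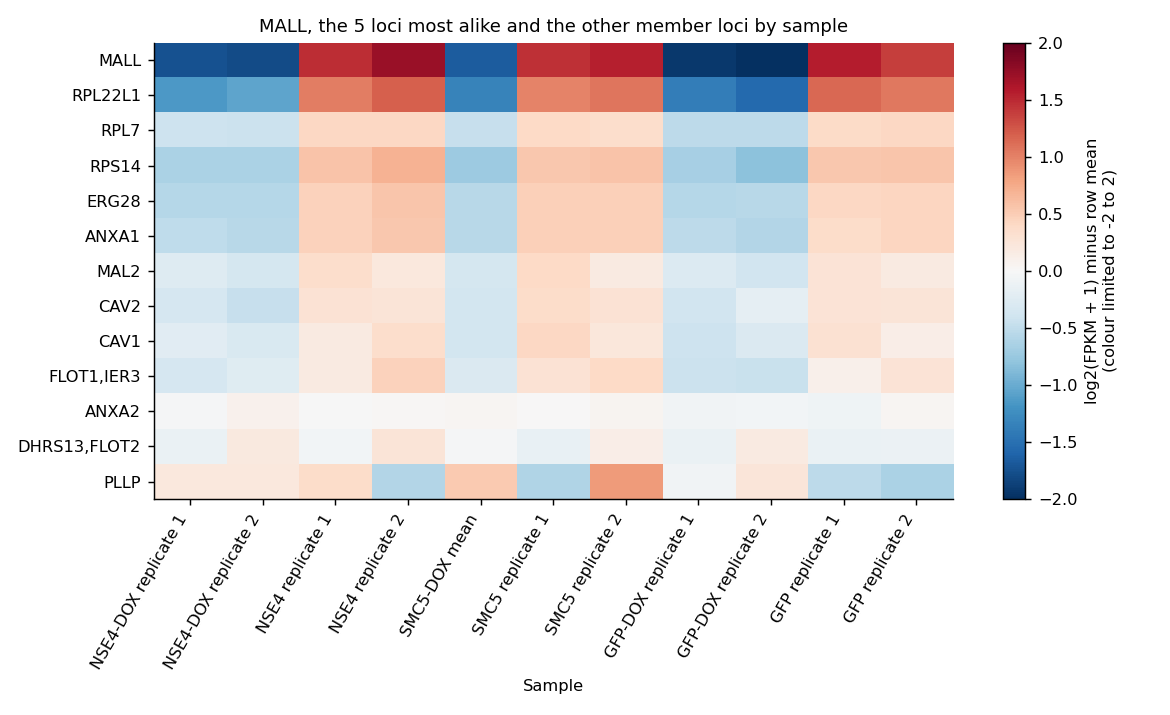
Log2(FPKM + 1) of MALL, of the 5 genes most like it and of the 7 other member loci in each of the 11 samples, as colour relative to the row's own mean, with DOX groups left of their PBS groups. The rows of the 5 genes, MAL2, CAV1, CAV2 and the FLOT1,IER3 locus change sign between the doxorubicin and PBS samples as MALL does, and those of ANXA2, PLLP and the DHRS13,FLOT2 locus do not.

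Genes near MALL and the caveolin pair in RefSeq's order on GRCh38.p14, up to 2 places away on each side and with a locus of their own, were read for comparison. Near MALL, on chromosome 2, MTLN, a mitochondrial micropeptide gene that the table lists as LINC00116, had 30.1 and 37.2 FPKM in GFP-DOX cells, against 55.4 and 61.8 FPKM in GFP cells, without overlap (log2 −0.79, limma adjusted p = 0.00171). It also fell by 0.92 in NSE4 cells and by 0.62 in SMC5 cells (limma adjusted p of 0.000883 and 0.0187). RGPD5, a member of a family of near-identical copies and so uncertain, differed by −0.10 in GFP cells (limma adjusted p = 0.683) and fell by 0.54 in NSE4 cells (limma adjusted p = 0.0346). In SMC5 cells it differed by −0.56 without overlap and did not pass the test (limma adjusted p = 0.0762).

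CAV1 and CAV2 lie side by side on chromosome 7, between TES and MET. MET, the receptor of hepatocyte growth factor, had 13.4 and 14.5 FPKM in GFP-DOX cells, against 48.8 and 47.8 FPKM in GFP cells, a log2 change of −1.72 ± 0.11 (SE; limma adjusted p = 5.33e-05), and it fell by 1.62 in NSE4 and by 1.72 in SMC5 cells (limma adjusted p of 6.34e-05 and 0.000265). TES, a focal adhesion protein, had 50.3 and 51.4 FPKM in GFP-DOX cells, against 65.9 and 72.7 FPKM in GFP cells (log2 −0.44, limma adjusted p = 0.00609). For both genes the groups did not overlap. CAPZA2, an actin capping subunit beyond MET, had overlapping values in GFP cells and a difference of 0.06 (limma adjusted p = 0.719), and TFEC beyond TES did not enter the fit.

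**Figure D5:**
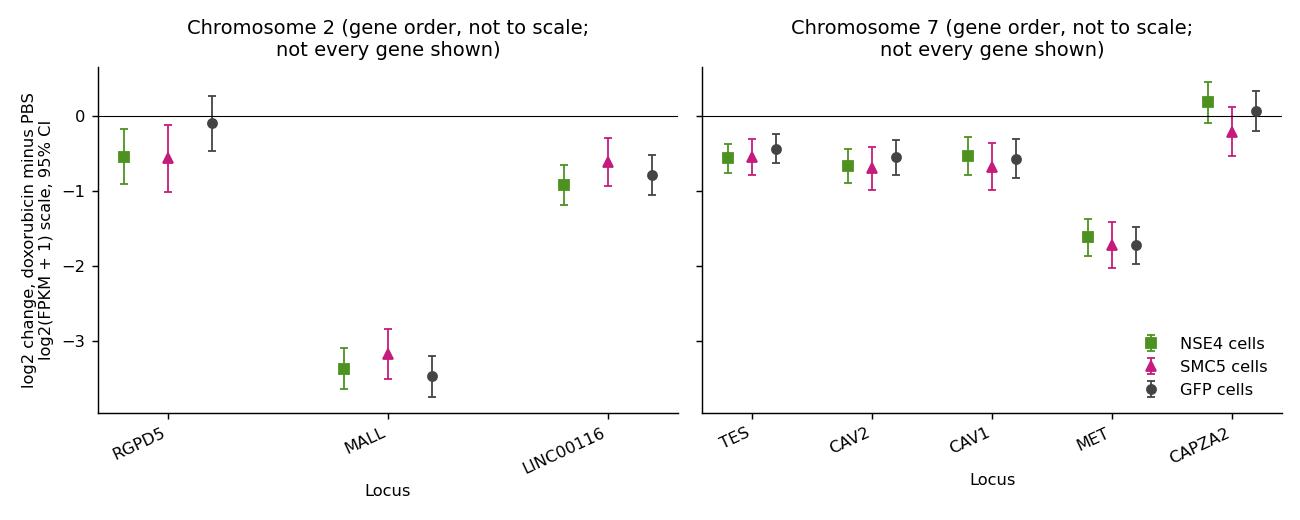
Log2(FPKM + 1) difference, doxorubicin minus PBS, of MALL, CAV1, CAV2 and nearby genes with a locus of their own, in gene order, with 95% intervals from limma in the 3 backgrounds. MALL at −3.47 to −3.17 stands far below the 2 nearby genes shown, while MET at −1.72 to −1.62 fell more than CAV1 and CAV2. The intervals drawn for MALL do not allow for its choice by its fall and carry no test.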

How the data were processed

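Total RNA of HCT116 cells was made into mRNA libraries, per the labels' protocols. Reads were handled with TopHat and Cufflinks, per the submitters' processing notes and the series' design text, and versions and the genome build are not given in the sources used here. The deposited table holds the authors' FPKM per locus, scaled to transcript length and mapped fragments, with no counts, so loci of several genes cannot be split and no count model was run. Depth was estimated from the spacing of low FPKM of genes with 1 annotated transcript of at least 1500 bases in GENCODE.

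The near-identical SMC5-DOX columns were averaged, leaving 11 samples. limma 3.58.1 in R 4.3.3 was fitted to log2(FPKM + 1) with a pseudocount of 1, which understates the change of low genes, on loci of at least 1 FPKM in at least 2 samples, with all 6 groups sharing the spread (5 residual degrees of freedom) and the trend option. Means of FPKM are given ± SD and log2 differences ± SE. The 9 contrasts were 3 doxorubicin, 4 plasmid and 2 interaction comparisons, with Benjamini-Hochberg adjustment over all loci kept. The fit was tested on simulated data. Lists used 1 locus a gene, that of highest mean, and genes on loci shared with other coding genes were dropped, which was decided once the loci were known. Named were all members, the 5 loci most correlated with MALL, up to 4 list genes of smallest p in GFP cells, and the plasmid genes. Nearby genes that share a locus with another gene are not reported here, a limit set after their values were seen. The members and lists were chosen with earlier results of these data known. Alternatives changed the pseudocount, filter, scaling, samples in the fit, replicate block and libraries left out. Figures were drawn with matplotlib 3.10.9.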

Additional observations from a re-analysis of the deposited data

How the results depend on the processing

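The 4 member calls in GFP cells (MAL2, CAV1, CAV2 and the FLOT1,IER3 locus) held under all 20 alternatives, with limma adjusted p of at most 0.049. The count of 4 in SMC5 cells was 0 when the SMC5 groups were fitted alone (limma, adjusted p of 0.11 to 0.143) and 2 to 4 when a library was left out. MALL's log2 difference in GFP, NSE4 and SMC5 cells was −3.65, −3.52 and −3.31 with a pseudocount of 0.1 and −2.89, −2.86 and −2.70 with 5. Scaling by median of ratios turned ANXA2 to −0.0256 in NSE4 and −0.0399 in SMC5 cells, and quantile normalization turned it to 0.27 in GFP cells.

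Over all kept loci the replicate differences correlated between groups at −0.039 to 0.073, which cannot exclude pairing at single loci. Replicate 2 was the higher one in 0 of 5 groups for MAL2 and in 5 of 5 for ANXA2 and the DHRS13,FLOT2 locus. For the other member loci the direction was mixed. With the replicate block the tetraspan list had 10 lower and 2 higher in GFP cells, the SRC list 2 higher and the sphingolipid list 3 lower. Calls rose over all loci too, as that fit called 6972 in GFP cells against 4919 without a block. In SMC5 cells the block gave 9 lower and 3 higher for the tetraspan list and 4 lower and 3 higher for the sphingolipid list. With the replicate block and the SMC5-DOX mean as 1 sample, an alternative chosen after seeing the data, the tetraspan list had 2 higher and the sphingolipid list 2 lower in GFP cells. This alternative called 5913, 5809 and 4380 of all loci in GFP, NSE4 and SMC5 cells, against 4919, 4780 and 3310 without a block. The replicate block called 7361 of all loci in SMC5 cells against 3310 without it, where it counted the averaged sample as 2, and it changed no member call. Fitted on the compared groups alone, GFP cells had 3168 called loci against 4919, NSE4 cells 2437 against 4780 and SMC5 cells 0 against 3310, and the 12 columns as separate samples gave 6077 in SMC5 cells. In that narrower fit of GFP cells the annexin list had 1 higher and 3 lower, the SRC list 0 in either direction and the sphingolipid list 0 lower. In SMC5 cells no gene of any list was called in it. For GFP cells median of ratios gave 1 annexin gene higher and 2 sphingolipid genes lower, quantile normalization and the 12 columns gave 2 sphingolipid genes lower, and a filter of 5 FPKM gave 2 GPI-anchored genes higher. Over all loci kept in each, these fits called 5405, 5515, 5718 and 4184 in GFP cells, in that order.

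With 1 library left out, called loci ranged from 2956 to 4905 in GFP cells, 2926 to 4585 in NSE4 cells and 1798 to 3294 in SMC5 cells. List counts in GFP cells ranged over 0 to 2 (tetraspan, higher), 1 to 2 and 3 to 5 (annexin, higher and lower), 0 to 1 (SRC, each direction), 1 to 3 and 0 to 2 (sphingolipid, higher and lower). Differences that changed sign were those of MALL for SMC5 against GFP (−0.0679 to 0.12) and its NSE4 interaction (−0.0246 to 0.22), the second MAL2 locus in GFP cells (−0.44 to 0.14), and PLLP in NSE4 (−0.15 to 0.79) and SMC5 cells (−0.33 to 1.12). The DHRS13,FLOT2 locus ranged over −0.0087 to 0.305 in GFP, −0.24 to 0.0909 in NSE4 and −0.16 to 0.12 in SMC5 cells, and ANXA2 over −0.10 to 0.0209, −0.023 to 0.0799 and −0.0207 to 0.0317 in the same order. RGPD5 ranged over −0.24 to 0.0479 and CAPZA2 over −0.0688 to 0.20 in GFP cells. In the 6 plasmid and interaction comparisons limma called 0 of the member loci other than MALL under each alternative, while the few loci called in all moved by more than 1.5 times under several. The cause of these shifts was not tested. With 1 library left out, the counts in NSE4 and SMC5 cells ranged over 0 to 2 higher and 4 to 5 lower for the tetraspan list and 0 to 1 in each direction for the SRC list, and for the sphingolipid list over 1 to 2 higher and 1 to 3 lower in NSE4 and 1 higher and 0 to 1 lower in SMC5 cells. No count or interval of fragments can be given from FPKM, so a value near 0, as for MAL, is not shown to be absence.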
